A study of Mus musculus with 3 samples.

Results

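Among the cells of mouse mandibular molars sorted for the Pthrp-mCherry reporter, a group was set apart by transcripts of Pappa2, Col13a1, Npnt and Ptprz1. A cell was counted as a member when at least 2 of these 4 genes had a unique molecular identifier (UMI), their UMIs summed to at least 4, Ibsp held under 1.5% of its UMIs, and neither Ptprc nor Epcam had a UMI. Of 24328 cells with 500 or more genes and no more than 20% mitochondrial UMIs (kept cells), 1612 were members. The P15 library held 1379 of them among 11412 kept cells, the P25 library 199 among 8325 and the 8-week library 34 among 4591. The rule had been proposed from measured values of these same cells, so the levels of its genes and every difference between members and other cells are given as a description, with no test.

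All 3 libraries came from Pthrp-mCherry knock-in mice, in which the reporter sits at the gene for parathyroid hormone-related protein (Pthlh), and carried no treatment. Molars were taken at postnatal day (P) 15, at P25 and at 8 weeks of age, the cells of each age were pooled and sorted for mCherry, and 1 library was made per age. Age and library therefore cannot be told apart, and the intervals below are 95% exact intervals that cover counting error only. The kept cells had medians of 15270.5 (P15), 16586 (P25) and 9370 (8 weeks) UMIs, and the members had medians of 17720, 20358 and 11731.

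Cementum, the mineralized layer that anchors the periodontal ligament to the root, is laid down by cementoblasts, which arise from mesenchymal cells around the growing root. Pappalysin-2, the product of Pappa2, is a secreted protease that cuts Igfbp3 and Igfbp5 and so frees insulin-like growth factors. Col13a1 encodes a collagen that spans the cell membrane, nephronectin (Npnt) is a matrix ligand of integrins, and Ptprz1 is a receptor phosphatase that binds pleiotrophin and midkine. In the mm10 assembly, GENCODE places Pappa2 on the minus strand of chromosome 1 from 158711727 to 158980490, Col13a1 on the minus strand of chromosome 10 from 61838236 to 61979108, Npnt on the minus strand of chromosome 3 from 132881745 to 132950291, and Ptprz1 on the plus strand of chromosome 6 from 22875502 to 23052916. All 4 are protein-coding genes, and counts were summed over each whole gene.

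The first question was how the share of these cells changed between P15, P25 and 8 weeks, which the study chose as the completion of acellular cementum, the onset of cellular cementum and maturation. The P15 share was 12.1% of kept cells (interval 11.5 to 12.7), the P25 share 2.39% (2.07 to 2.74) and the 8-week share 0.741% (0.513 to 1.03). The share at P15 was 5.06 times that at P25 (4.35 to 5.90) and 16.3 times that at 8 weeks (11.6 to 23.7). Among members without a UMI of any of 6 genes of other cell classes, the ratio of P15 to 8 weeks was 3.39 (2.20 to 5.48). That of P25 to 8 weeks was 1.08 (0.639 to 1.87). This filter acted on members alone, and the shares were still taken over all kept cells. Krt14, among these 6 genes, had a UMI in 1124 of 1379 P15, 145 of 199 P25 and 8 of 34 8-week members. Both ratios therefore depend on how often members of each library carried Krt14, and they do not test the fall. The share at P25 was 3.23 times that at 8 weeks (2.24 to 4.79), but the members' rule has a floor on UMIs and the 8-week cells were the shallowest. With each cell thinned at random to 5000 UMIs, the shares were 5.71% (602 of 10551 cells), 0.339% (27 of 7960) and 0.289% (11 of 3808). Kept cells with fewer UMIs (861, 365 and 783) were left out there. At that equal depth the P15 share was 16.8 times the P25 share (11.4 to 25.7) and 19.8 times the 8-week share (11.0 to 39.8), whereas the ratio of P25 to 8 weeks was 1.17 with an interval of 0.564 to 2.62. The floor of 4 UMIs was kept there and is stricter for thinned cells. Without thinning, the ratio of P15 to P25 was 6.71 with a sum of at least 6 UMIs and 11.8 with at least 3 of the 4 genes, so equal depth and a stricter rule cannot be told apart in the 16.8. A further fall after P25 was not detectable at that depth.

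**Figure D1:**
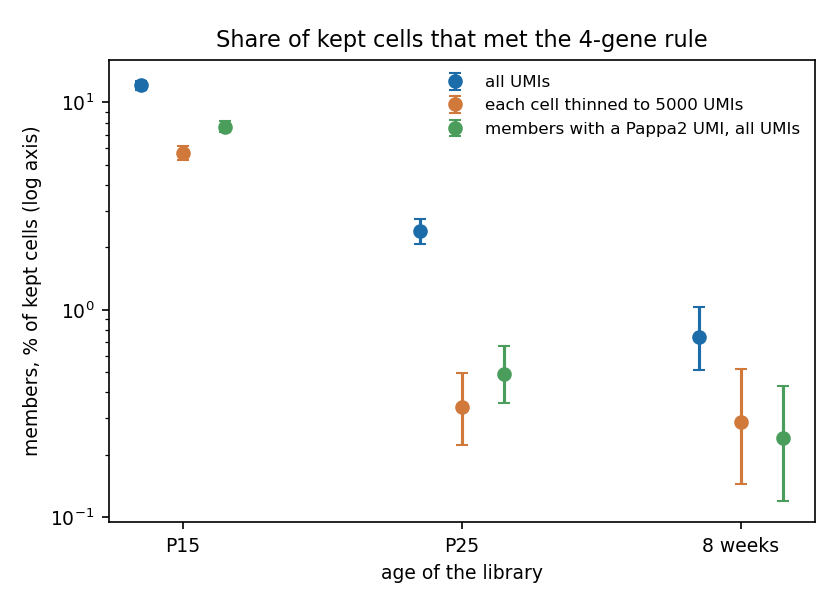
Share of kept cells that were members in each library, in percent on a log axis, with exact 95% intervals. Blue points use all UMIs (12.1, 2.39 and 0.741%), orange points use cells thinned to 5000 UMIs (5.71, 0.339 and 0.289%), and green points count the members with a Pappa2 UMI (7.65, 0.492 and 0.240%).

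The fall from P15 was steeper for cells that carried more of the signature. Cells with a UMI of all 4 genes numbered 431 in the P15 library (3.78% of kept cells), 3 in the P25 library (0.0360%) and 1 in the 8-week library (0.0218%). At P15 the members divided almost evenly, with 470, 478 and 431 cells that had 2, 3 and 4 of the genes. At P25 the corresponding numbers were 143, 53 and 3, and at 8 weeks they were 25, 8 and 1. Most of the late members were therefore cells with 2 of the 4 genes.

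Of the rule genes, Pappa2 showed the largest drop in detection among members. It had a UMI in 873 of the 1379 P15 members (63.3%), 41 of the 199 P25 members (20.6%) and 11 of the 34 8-week members (32.4%). Npnt had a UMI in 94.6, 88.4 and 79.4% of members and Ptprz1 in 68.5, 70.4 and 64.7%. Col13a1 had one in 70.7, 50.3 and 52.9%. At 5000 UMIs per cell the shares were 41.2, 11.6 and 21.2% for Pappa2, 64.9, 53.0 and 45.5% for Npnt, 40.1, 36.4 and 51.5% for Ptprz1 and 46.3, 27.8 and 36.4% for Col13a1, so the order of the ages for Ptprz1 depended on depth. Immune cells (cells with a Ptprc UMI) at P15, taken as background, had 1.71, 7.76, 2.63 and 2.85% in the same order of genes, and 4.10, 14.7, 6.14 and 5.16% unthinned. The pair most often found together was Npnt with Col13a1 at P15 (916 members) and Npnt with Ptprz1 at P25 (119 members) and at 8 weeks (15 members), whereas Pappa2 and Col13a1 shared 637, 11 and 3 members. The summed UMIs of the 4 genes ran from 4 to 81 per member at P15 with a median of 11, from 4 to 229 with a median of 7 at P25, and from 4 to 15 with a median of 6 at 8 weeks. A single P25 member held 224 Col13a1 UMIs, which were 42.3% of all Col13a1 UMIs of the P25 members. Just inside the threshold, 149, 44 and 10 members had a sum of 4, and 191, 65 and 21 cells fell just outside with a sum of 3. Thbs4, a gene outside the rule, was at 1333, 502 and 1460.4 UMIs scaled to 1000000 per group (CPM) in the former and 1007, 416 and 1063 CPM in the latter. Col16a1 was at 655, 704 and 552 CPM inside and 552, 804 and 881 CPM outside, so it was the lower inside at P25 and 8 weeks. Eya1 was at 43.7, 28.7 and 12.3 CPM inside and 30.7, 15.4 and 62.9 CPM outside, lower inside at 8 weeks.

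The whole libraries, without any choice of cells, showed which of these genes declined with age. Over all kept cells, Pappa2 had 32.2 CPM in the P15 library (31.4 to 33.0), 2.63 CPM in the P25 library (2.39 to 2.90) and 3.43 CPM in the 8-week library (2.91 to 4.01). Col13a1 went from 31.2 to 8.53 and 8.57 CPM, Ptprz1 from 31.9 to 11.3 and 8.24 CPM, Npnt from 74.6 to 21.6 and 12.7 CPM, and Eya1, a transcriptional cofactor of the eyes absent family, from 26.7 to 7.73 and 8.84 CPM. All 5 were lower at P25 and at 8 weeks than at P15 by more than the counting error. The other 3 markers were not lower at 8 weeks than at P15, although Thbs4 and Col16a1 were lower at P25. Spon2, which encodes the secreted matrix protein spondin 2, was at 24.0, 56.3 and 39.0 CPM, Thbs4 (thrombospondin 4) at 831, 539 and 1349 CPM, and Col16a1, a collagen associated with fibrils, at 439, 422 and 457 CPM. At P15 the members, with 14.8% of all UMIs, held 85.1% of the Pappa2 UMIs, 71.0% of Col13a1, 59.0% of Spon2, 54.1% of Eya1, 48.9% of Col16a1 and 42.5% of Thbs4. At 8 weeks, with 1.01% of all UMIs, they held 19.4% of Pappa2, 6.57% of Spon2, 1.52% of Col16a1 and 1.16% of Thbs4.

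**Figure D2:**
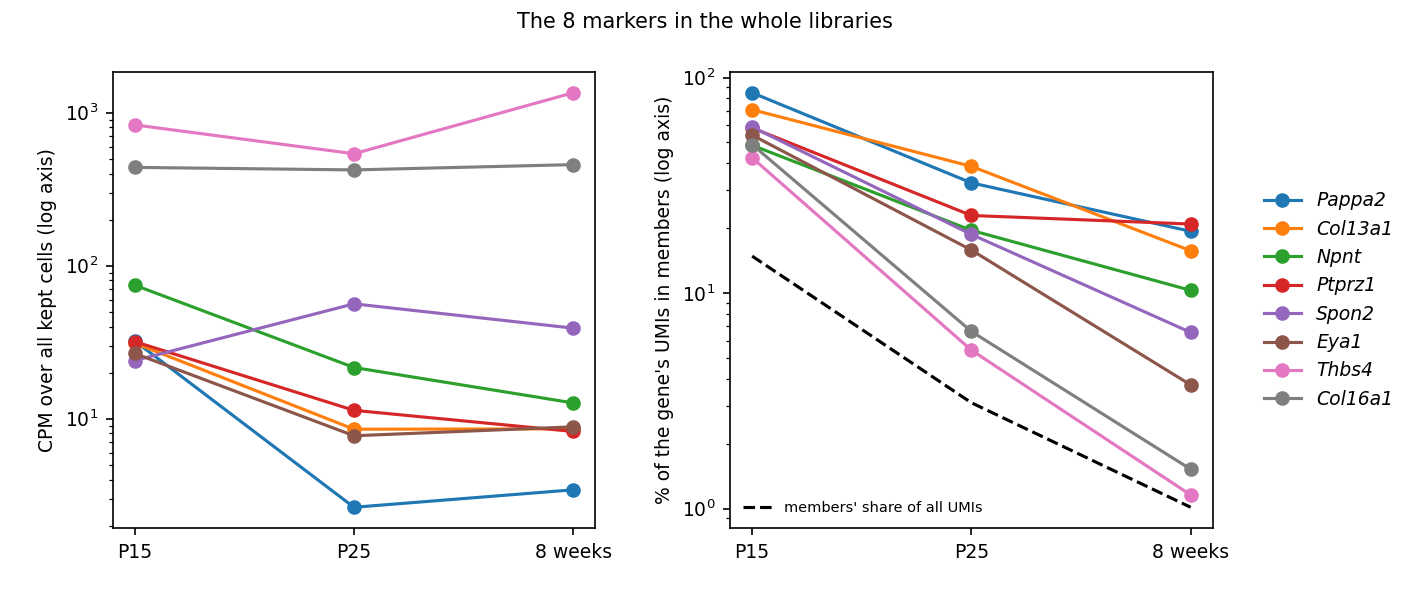
The 8 markers in the whole libraries. The left panel gives the level over all kept cells in CPM and the right panel the percentage of each gene's UMIs that lay in members, both on log axes, with a dashed line for the members' share of all UMIs (14.8, 3.10 and 1.01%). Pappa2 fell from 32.2 to 3.43 CPM, while Spon2, Thbs4 and Col16a1 were no lower at 8 weeks than at P15.

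The markers outside the rule were next compared between members and other cells of the same library. The main comparator was the set of other stroma-gated cells, which were kept cells outside the group with no UMI of Ptprc, Epcam, Pecam1 or Cdh5 and with Ibsp under 1.5% of UMIs (6742, 5992 and 3625 cells). Levels are CPM of the summed UMIs of a cell group over 21446 gene identifiers common to the 3 libraries, and differences are log2((CPM + 1)/(CPM + 1)) within a library, which understate the change of low genes. In this section 3 values in a row are P15, P25 and 8 weeks, in that order.

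Spon2 was at 95.3, 340 and 253 CPM in members and at 10.7, 54.3 and 40.3 CPM in the other stroma-gated cells, a log2 difference of 2.76 ± 0.24 (mean ± SD over 3 libraries). It was thus higher in members at every age, although its own level rose after P15 in both groups. Eya1 was at 97.1, 39.5 and 32.7 CPM against 13.9, 7.77 and 8.62 CPM, a log2 difference of 2.24 ± 0.45. At 5000 UMIs per cell, 31.1, 59.6 and 48.5% of members had a Spon2 UMI, against 4.07, 11.9 and 10.3% of the other stroma-gated cells and 2.28 and 3.89% of immune cells at P15 and P25, in which such UMIs are background. The unthinned shares of members were 55.4, 75.9 and 64.7%, and those of immune cells 4.99 and 7.93%, with median depths of 17720 and 11498 UMIs at P15.

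Thbs4 and Col16a1 behaved differently. Thbs4 was at 2377, 945 and 1539 CPM in members and at 426, 499 and 1307 CPM in the other stroma-gated cells, with log2 differences of 2.48, 0.92 and 0.24. Col16a1 was at 1444, 905 and 687 CPM against 304, 516 and 489 CPM, with log2 differences of 2.24, 0.81 and 0.49. Both genes marked the members at P15, and the difference was below 2-fold at P25 and at 8 weeks. Cells with Ibsp at or above 1.5% of UMIs (Ibsp-high cells, 825, 980 and 749 cells, Ibsp being a matrix protein of mineralizing cells) had Thbs4 at 2579, 1690.5 and 1917 CPM and Col16a1 at 236, 282 and 408 CPM, so Thbs4 did not separate members from Ibsp-high cells at any age.

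**Figure D3:**
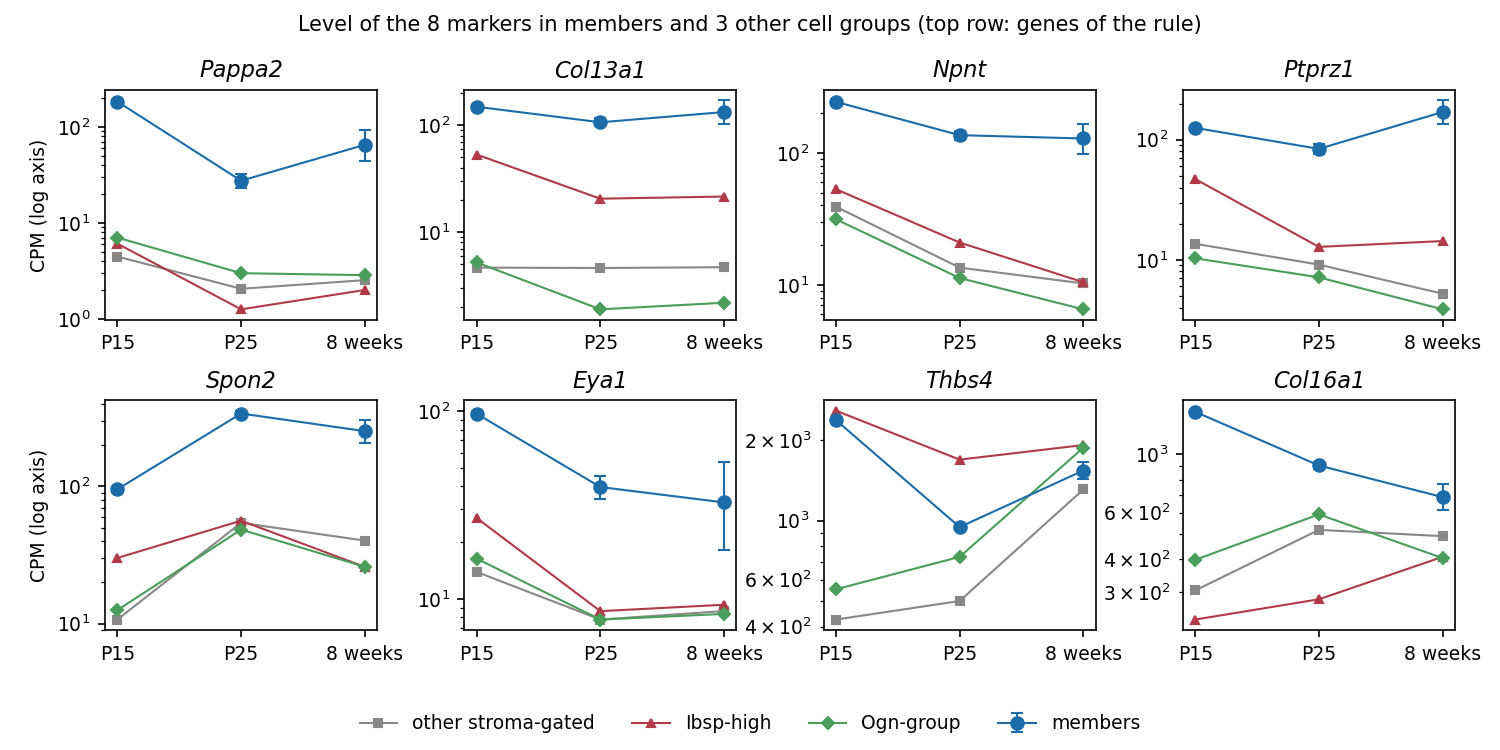
Level of the 8 markers in members (blue, with exact 95% Poisson intervals), other stroma-gated cells (grey), Ibsp-high cells (red) and Ogn-group cells (green) at each age, in CPM on log axes. The top row holds the 4 genes of the rule. Spon2 and Eya1 stayed above all 3 other groups at each age, whereas Thbs4 in members was below Ibsp-high cells throughout.

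Across 8409 tested genes (a mean of at least 10 CPM), 31 were at least 2-fold higher in members in 3 of 3 libraries (0.369% of tested genes) and 65 were at least 2-fold lower (0.773%). The 31 included the 4 genes of the rule and, outside it, Spon2, Eya1, Col15a1, Fgfr3, Plpp1, Rora, Rasal2, Postn, Acan, Lrp8, C1ql3, Tec, Ehd3, Slc1a4, Tmem26, Myo16, Clic5, Mamdc2 and A630033H20Rik. The other 8, named after their values were seen (Egfl7, Cd93, Kdr, Flt1, Plvap, Slco2a1, Pecam1 and Ctla2a), are mostly known from endothelium. Members could carry Pecam1 or Cdh5 UMIs and the comparator could not, and at 8 weeks a single member held between 83.3 and 100% of the UMIs of each of the 8. With the same gate on members, which left 1326, 190 and 31 of them, 25 genes were called higher, 21 of them among the 31, and no gene of the endothelial list reached a mean of 10 CPM. Besides the 8 genes, Clic5 and Rasal2 lost their call there. With the comparator limited to cells with at least the lower quartile of the members' UMIs, Postn, Rora, Rasal2 and Mamdc2 lost theirs. Outside the 8, Acan, Col15a1, Clic5 and Mamdc2 lost the call among members with a Pappa2 UMI, and Plpp1, C1ql3, Tmem26, Postn, Rasal2, Mamdc2 and A630033H20Rik in cells thinned to 5000 UMIs. Tec lost it against all other kept cells and Lrp8 without the P15 library.

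Of the genes called higher, periostin (Postn), a matrix protein abundant in the periodontal ligament, had the highest level. It was at 2359, 4987 and 4327 CPM in members against 820.1, 2465 and 1999 CPM in the other stroma-gated cells, a log2 difference of 1.22 ± 0.27. Col15a1, a collagen of basement membrane zones, was at 36.96, 142 and 118 CPM against 8.05, 37.4 and 28.1 CPM (1.999 ± 0.09). In Ibsp-high cells Col15a1 was at 38.8, 119 and 69.4 CPM, close to the members' level at P15 and below it later. Fgfr3, a receptor for fibroblast growth factors, was at 69.5, 71.1 and 80.7 CPM against 17.9, 24.2 and 23.8 CPM (1.71 ± 0.19). Among these 3 genes Fgfr3 differed least between ages in members. It was also lower in Ibsp-high cells, at 8.22, 13.2 and 10.7 CPM, which set members apart from both groups. The nuclear receptor gene Rora was at 273, 249.7 and 445 CPM against 56.5, 120.2 and 176 CPM (1.54 ± 0.63), and the lipid phosphatase gene Plpp1 at 97.2, 130.4 and 113 CPM against 23.4, 48.5 and 38.8 CPM (1.65 ± 0.32). Aggrecan (Acan), a proteoglycan best known from cartilage, was low at 37.4, 46.96 and 23.98 CPM but lower still in the comparator at 9.37, 8.84 and 4.82 CPM. Further genes that ranked high without passing in all 3 libraries were Cd200, Mtss1l, Mmp14, Pdzd2, St6galnac2, Trps1 and Gng2, whose smallest log2 difference in any library ran from 0.89 for Gng2 to 0.92 for Cd200. In Ibsp-high cells Cd200 was at 375, 210 and 264 CPM, against 105, 109 and 116 CPM in members. Pdzd2 and Trps1 were also higher there than in members at P15 and P25. Mtss1l, Mmp14, St6galnac2 and Gng2 were lower there at P15.

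At P15, where 1379 members gave the deepest data, 201 of the 8409 genes (2.39%) were at least 2-fold higher in members and 248 (2.95%) at least 2-fold lower. The corresponding shares were 0.999 and 1.52% in the P25 library, and 3.52 and 5.17% in the 8-week library with its 34 members. Besides the genes above, the highest P15 differences, chosen after their values were seen, included Arl4d at 122 against 17.3 CPM, Tnfaip2 at 198 against 47.7 CPM, Lrrc17 at 369 against 96.96 CPM, Errfi1 at 758 against 210.3 CPM and Nupr1 at 736 against 207 CPM. In each of these 5 genes the log2 difference was smaller at P25, from 0.22 for Tnfaip2 to 1.22 for Arl4d.

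Of the 65 genes lower in members, 10 are named here, those with the largest difference in their weakest library among genes with a mean of at least 50 CPM in the comparator. Gpha2, which encodes a glycoprotein hormone subunit, was at 20.2, 34.7 and 28.3 CPM in members and 117, 265 and 203 CPM in the other stroma-gated cells (-2.72 ± 0.22). Igfbp3, a carrier of insulin-like growth factors, was at 149, 406 and 384 CPM against 571, 1355 and 1374 CPM (-1.84 ± 0.10). The vascular ligand gene Angpt4 was at 18.2, 16.5 and 43.6 CPM against 67.9, 122 and 193 CPM, the lipocalin gene Apod at 27.9, 57.6 and 58.9 against 148, 203 and 766 CPM, Vit at 35.1, 49.4 and 47.96 against 114, 154 and 233 CPM, and Ambn, known as an enamel matrix gene that root epithelium also uses, at 42.3, 26.2 and 17.4 against 232, 103 and 93.6 CPM. Gm973 and 1810041L15Rik were lower by similar amounts, with log2 differences of -1.86 ± 0.11 and -2.26 ± 0.73. Coch was at 59.97, 36.7 and 0 CPM in members against 317, 113 and 14.99 CPM. The globin gene Hbb-bt was at 56.8, 4.43 and 0 CPM against 459, 335 and 4.51 CPM. At 8 weeks, 3 UMIs in the summed members correspond to 6.54 CPM, so a gene listed at 0 there may be as high as that.

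The name under which these cells were proposed calls them precursors of an alveolar type, so genes that the study names as higher in alveolar bone osteoblasts than in cementoblasts were examined. One of them, Col13a1, belongs to the rule and was left out, and of the other 8 the study describes Rgs5, Col4a1 and Olfml2a as perivascular or basement membrane genes. None of the 8 was called higher or lower in 3 of 3 libraries, and the median of their mean log2 differences was -0.22, against -0.01 over all tested genes. The median was -0.73 at P15, -0.05 at P25 and 0.27 in the 8-week library. It was -0.86 over 7 tested genes with members also at 0 for Pecam1 and Cdh5. Without members that had 10 or more UMIs of another cell class it was -0.92, again over 7 genes. With the comparator limited to cells with at least the lower quartile of the members' UMIs it was 0.14. Among members with a Pappa2 UMI it was -1.08, and 3 of 7 genes were called lower. In that setting 108 genes in all were called lower. The 8 genes summed to 963, 1282 and 1225 CPM in members and 1070, 1207 and 918 CPM in the other stroma-gated cells. In Ibsp-high cells they summed to 300, 378 and 299 CPM. Members were thus above the Ibsp-high cells at each age. Alpl, a phosphatase needed for mineralization, was at 458, 445 and 419 CPM in members against 206, 268 and 261 CPM, which was past 2-fold at P15 alone. Acp5 was at 22.2, 41.5 and 21.8 against 48.5, 72.5 and 61.6 CPM, Thbs1 at 49.5, 109.6 and 61.04 against 90.4, 152 and 183 CPM, and Col4a1 at 99.7, 199 and 124 against 152, 165 and 80.6 CPM. Serpine2 was at 249.7, 364 and 512 against 291, 424 and 147 CPM, and Rgs5, also a marker of mural cells, at 39.3, 26.4 and 32.7 against 202, 14.9 and 34.7 CPM. The cells are described here by the rule and its genes.

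Genes of osteoblast differentiation were partly higher at P15. None of the 15 tested genes of that list was called in 3 of 3 libraries (median 0.65), but at P15 6 were at least 2-fold higher and 3 at least 2-fold lower. At 8 weeks 1 was at least 2-fold higher and 4 at least 2-fold lower. The medians by library were 0.25, 0.54 and -0.04. Among members with a Pappa2 UMI the median was -0.07 and 2 of 15 genes were called lower, of 108 genes in all. Runx2, the transcription factor that starts osteoblast differentiation, was at 417, 257 and 399 CPM in members against 209, 201 and 262 CPM, while Sp7, which acts after it, was at 96.2, 124 and 91.6 against 80.6, 109 and 100.4 CPM. Col1a1, the main bone collagen chain, was at 28559, 45019 and 23189 CPM against 10742, 28754 and 17118 CPM, Col1a2 at 25381, 34102 and 18053 against 8414, 20599 and 12900.5 CPM, and Sparc at 21947, 31546 and 15994 against 8584, 21654 and 14307 CPM. Dlx5 was lower, at 64.3, 55.4 and 58.9 against 156, 88.6 and 127 CPM. Osteocalcin (Bglap), a late osteoblast product, was at 1880, 4697 and 3843 CPM against 514, 2945 and 4642 CPM, and a single 8-week member held 55.4% of the members' Bglap UMIs.

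Of 9 late osteoblast and osteocyte genes 5 could be tested and none was called (median 0.28), and Mepe and Fgf23 had no UMI in any member. The list's medians were 0.15, 0.89 and 0.80. Among members with a Pappa2 UMI the median was -2.10 over 4 tested genes, and 1 was called lower, of 108 genes in all. With members also at 0 for Pecam1 and Cdh5, 1 gene of the list was called higher, of 25 in all. With the comparator limited to cells with at least the lower quartile of the members' UMIs, 1 was called higher, of 29 in all. The 9 genes summed to 121, 743 and 344 CPM in members, 122, 424 and 243 CPM in the other stroma-gated cells, and 765, 739 and 493 CPM in Ibsp-high cells. Dmp1 was at 15.3, 149 and 109 CPM in members and 374, 269 and 184 CPM in Ibsp-high cells, Col11a2 at 41.7, 300.3 and 37.1 against 82.8, 125 and 40.1 CPM, and Ifitm5 at 36.4, 217 and 100.3 against 276, 301 and 225 CPM. Pdpn was at 15.4, 40.1 and 41.4 against 31.6, 41.8 and 41.99 CPM. All 4 were higher in the P25 members than in the P15 members, but the make-up of the members also differed. Those without a Pappa2 UMI were 506 of 1379 at P15 and 158 of 199 at P25. In them Ifitm5 went from 81.9 to 268 CPM and Col11a2 from 95.1 to 370 CPM. Among members with a Pappa2 UMI, Ifitm5 went from 12.6 to 5.24 CPM and Col11a2 from 13.9 to 6.29 CPM. Phex of the same list went from 3.95 to 17.8 CPM there.

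The study's own marker genes, which were picked on these libraries and are not independent evidence, were also counted. Of 8 genes named for its precursor Cluster 3, which include the markers Thbs4 and Col16a1, all 8 were at least 2-fold higher in members at P15, 1 at P25 (Rora) and 1 at 8 weeks (Rora), and the median of the mean log2 differences was 0.98. Col3a1 was at 15564, 15416 and 15396 CPM against 5406, 9686 and 8326 CPM. Of 8 genes named for precursor Cluster 0, 3 were called lower in 3 of 3 libraries, namely Cxcl12 at 78.05, 51.8 and 56.7 against 170, 151 and 243 CPM, Fbln1 at 120, 208 and 187 against 259, 491 and 556 CPM and Mfap4 at 111, 106 and 98.1 against 309, 374 and 329.9 CPM, and the list's median was -0.78. Igfbp4, Gpx3 and Igf1 of that list were not called, with 846, 1580.1 and 1443 CPM of Gpx3 in members. Of 7 genes named for precursor Cluster 1, Pcp4 at 217, 69.3 and 189.6 against 813, 369 and 541 CPM and Crabp1 at 282, 185 and 100.3 against 608, 449 and 594 CPM were called lower (median -0.95). Ptn, which encodes the Ptprz1 ligand pleiotrophin and belongs to that list, was at 2254, 2907 and 3200 CPM against 4993, 3155 and 4375 CPM. None of the 15 genes named for cementoblasts (median 0.54) and none of the 16 periapical genes (median -0.37) was called. Among members with a Pappa2 UMI 2 periapical genes were called higher (median 0.26), in a setting where 37 genes in all were called higher. In the same setting 2 of 14 tested cementoblast genes were called lower (median -0.18), of 108 genes in all. With members also at 0 for Pecam1 and Cdh5, 1 cementoblast gene was called higher. The same count held with the comparator limited to cells with at least the lower quartile of the members' UMIs. Of the cementoblast genes, Timp3 was at 670, 485 and 748 CPM in members and 1818, 1597 and 2547 CPM in Ibsp-high cells, and Bmp3 at 160.2, 149 and 299 against 949, 651 and 906 CPM. Among periapical genes in members Tnn was above Cald1 at P25 and at 8 weeks and below it at P15. Tnn was at 345, 1291 and 1925 against 176, 908 and 1236 CPM, Cald1 at 846, 737 and 1077 against 643, 635 and 796 CPM, Htra1 at 240.1, 655 and 529.7 against 136, 567 and 237 CPM and Csrp2 at 293, 221 and 312 against 439, 402 and 407 CPM.

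The gene behind the reporter was low in members. Pthlh was at 96.02, 102 and 107 CPM in members, 124, 189 and 176 CPM in the other stroma-gated cells and 607, 472 and 554 CPM in Ibsp-high cells. The mCherry transcript had the same order, with 176, 192 and 314 CPM in members, 264, 339.6 and 399 CPM in the other stroma-gated cells and 1037, 769.7 and 1342 CPM in Ibsp-high cells. At 5000 UMIs per cell, 24.1% of P15 members had a Pthlh UMI, against 30.5% of the other stroma-gated cells, 84.0% of Ibsp-high cells and 12.7% of immune cells, and the unthinned shares were 41.0, 47.6, 96.0 and 18.4%. The receptor gene Pth1r was at 116, 73.4 and 71.9 CPM in members against 51.5, 50.5 and 51.1 CPM, and the Wnt inhibitor gene Wif1 at 1755, 2381 and 3414 against 3091, 4426 and 5788 CPM. None of the 3 genes of this list was called (median -0.65).

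**Figure D4:**
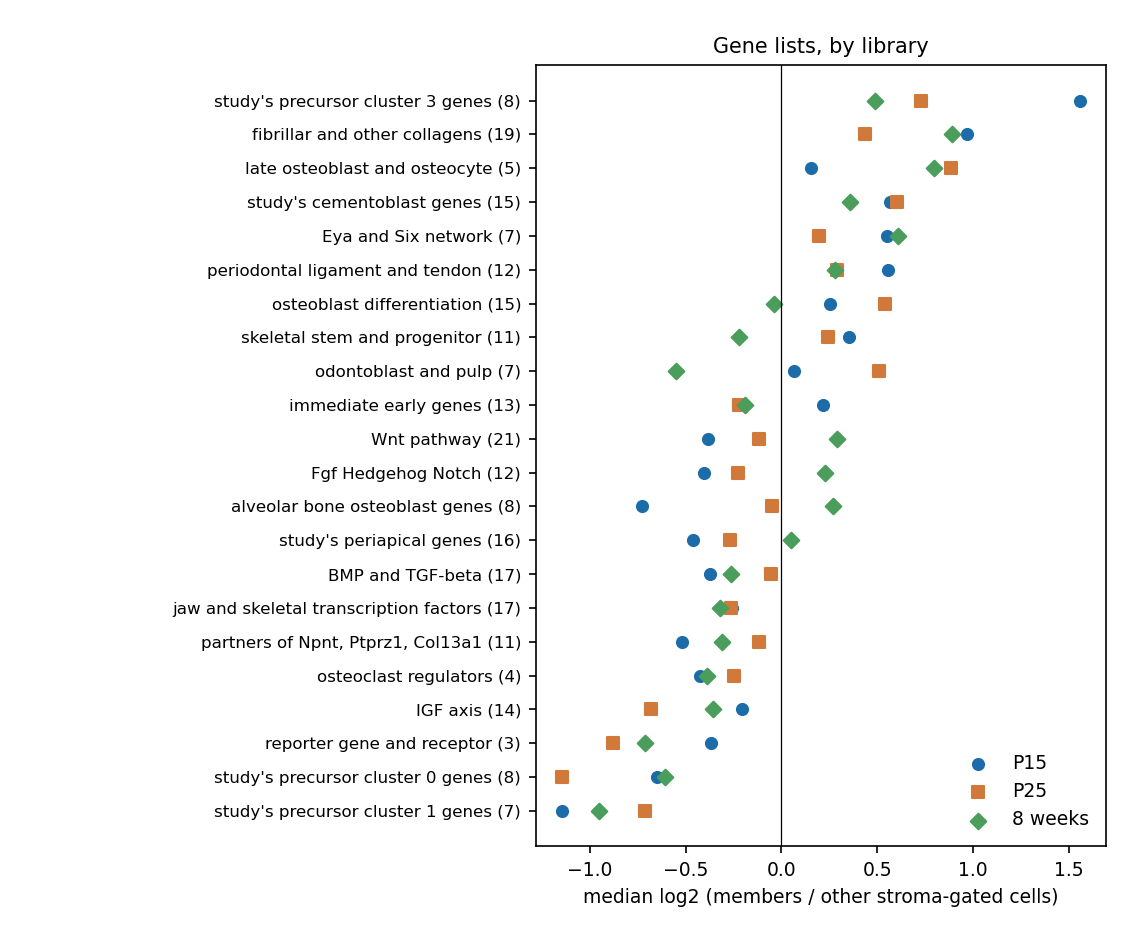
Median log2 difference between members and other stroma-gated cells for 22 gene lists in each library (circles P15, squares P25, diamonds 8 weeks). The number of tested genes stands in brackets. The list of the 8 markers, the cell cycle list and lists of other cell types are left out. The lowest medians were -1.15, for the study's precursor Cluster 1 genes at P15 and its Cluster 0 genes at P25, and the highest was 1.56, for its Cluster 3 genes at P15.

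Collagens and periodontal ligament and tendon genes held 1 call each. Of 19 collagens, 9 (P15), 2 (P25) and 6 (8 weeks) were at least 2-fold higher, and Col15a1 was higher in all 3 libraries (median 0.72), a call it lost among members with a Pappa2 UMI. Col5a2 was at 2060.4, 2375 and 2280.1 CPM against 987, 1648 and 1228 CPM, and Col12a1 at 1458, 1833 and 2454 against 745, 1145 and 985 CPM. Of 12 ligament and tendon genes, Postn was called (median 0.54, and 0.55, 0.29 and 0.28 by library). Asporin (Aspn) was at 1234, 1368 and 434 CPM against 413, 663 and 492 CPM, the tendon transcription factor gene Scx at 10.4, 24.4 and 19.6 against 5.50, 12.4 and 13.2 CPM, tenomodulin (Tnmd) at 239, 226 and 194 against 140.4, 145 and 53.3 CPM, and Tnc at 138, 165 and 146 against 303, 285 and 276 CPM. The Aspn difference was past 2-fold at P15 and P25, and at 8 weeks members were the lower group. Dcn was at 896, 2484 and 2197 against 1096, 1949 and 3413 CPM, Bgn at 1103, 2474 and 1864 against 1009, 2204 and 1828 CPM and Egr1 at 1742, 1437 and 2574 against 1369, 1627 and 2935 CPM.

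Because Pappa2 acts on insulin-like growth factor carriers, the genes of that axis were examined as a list. Of 14 tested genes 2 were called lower (Igfbp2 and Igfbp3) and none higher (median -0.54). With the comparator limited to cells with at least the lower quartile of the members' UMIs, 1 was called lower. Igfbp5, cut by pappalysin-2, was at 1823, 847 and 1212 CPM in members against 877, 874 and 1969 CPM, and was past 2-fold higher at P15 alone. Igfbp3, the other carrier it cuts, was lower at each age, as given above. Igfbp4, which the related pappalysin-1 cuts, was at 845, 759 and 1062 against 1382, 1578 and 1659 CPM, and Igfbp7 at 588, 1297 and 1415 against 556, 1044 and 1238 CPM. Igf1 was at 604, 322 and 569 against 671, 595 and 665 CPM, Igf2 at 179.7, 141 and 155 against 305, 283 and 284 CPM and the receptor gene Igf1r at 95.8, 94.1 and 163 against 89.3, 103 and 150.2 CPM.

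No gene among 11 tested partners of nephronectin, Ptprz1 and Col13a1 was called (median -0.45). At P15 2 of the 11 were at least 2-fold higher and 5 at least 2-fold lower. The nephronectin receptor chain Itga8 was at 9.64, 35.7 and 13.1 CPM in members against 20.9, 43.7 and 21.4 CPM, Itgb1 at 629, 800.3 and 1089.9 against 515, 514 and 605 CPM, Itgb5 at 326, 282 and 371 against 129, 206 and 222 CPM, and midkine (Mdk) at 912, 405 and 429 against 1249.8, 613 and 533 CPM. The relatives of Eya1 were also examined. Among 7 tested genes of the network around Eya1 none was called (median 0.38), with Six2 at 56.9, 40.1 and 56.7 against 37.4, 33.3 and 32.7 CPM, Six4 at 22.1, 16.9 and 43.6 against 13.8, 14.6 and 18.1 CPM and Pax9 at 97.2, 95.7 and 150.4 against 93.2, 100.4 and 146 CPM.

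Of 17 tested jaw and skeletal transcription factors 4 (P15), 1 (P25) and 2 (8 weeks) were at least 2-fold lower and none higher. Sox9, the cartilage regulator, was called lower at 34.5, 27.6 and 50.1 against 138, 87.03 and 142 CPM and no other was called (median -0.17). Twist1 was at 637, 529.8 and 643 against 434, 524 and 528 CPM, Prrx2 at 246, 300.3 and 327 against 249.7, 338 and 408 CPM, Barx1 at 312, 239 and 249 against 373, 287 and 293 CPM and Zfhx4 at 169, 124 and 144 against 196, 125 and 187 CPM. In the Wnt pathway, the secreted inhibitor gene Frzb was lower at 16.7, 12.1 and 17.4 against 47.8, 41.5 and 66.1 CPM, 1 call among 21 tested genes (median 0.02). Sfrp2 was at 295, 460.3 and 554 against 507, 607 and 495 CPM, Dkk3 at 162, 229 and 209 against 90.1, 156 and 138 CPM, Fzd1 at 107, 137 and 283 against 127, 149 and 190.3 CPM and Fzd2 at 83.2, 81.2 and 91.6 against 118, 108 and 139 CPM.

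Of 17 genes of BMP and TGF-beta signalling, 2 were called lower and none higher (median -0.21). With the comparator limited to cells with at least the lower quartile of the members' UMIs, 1 was called lower. Among members with a Pappa2 UMI 1 was also called lower. The BMP antagonist gene Chrdl1 was lower, at 2.99, 9.07 and 0 against 9.01, 27.6 and 24.3 CPM. Tgfb1 was at 263, 321 and 320.4 against 105, 197 and 164 CPM, Id3 at 1643, 1275 and 1323 against 1577, 1568 and 1748 CPM, Id2 at 210.1, 253 and 262 against 269, 359 and 423 CPM and Smad7 at 91.9, 119.5 and 222 against 114, 102 and 123 CPM. Of 12 genes of Fgf, Hedgehog and Notch signalling, Fgfr3 was the single call (median -0.12). Fgfr1 was at 398, 430.1 and 676 against 247, 310.2 and 407 CPM, Fgfr2 at 303, 181 and 177 against 141, 127 and 149 CPM, Smo at 73.2, 64.9 and 80.7 against 79.3, 62.03 and 69.2 CPM and the Hedgehog target Gli1 at 7.38, 8.67 and 10.9 against 17.9, 20.97 and 8.31 CPM. None of 11 skeletal stem and progenitor genes was called (median -0.30 of the mean differences, and 0.35, 0.24 and -0.22 by library). Ctsk was at 386, 777 and 543 against 302, 656 and 493 CPM, Pdgfra at 116, 149 and 146 against 182, 144 and 181 CPM, Cd200 at 105, 109 and 116 against 54.8, 51.3 and 57.8 CPM and Ly6a at 46.1, 83.8 and 133 against 21.03, 58.04 and 210.5 CPM. None of 4 osteoclast regulators was called (median -0.11), and Tnfrsf11b, the decoy receptor osteoprotegerin, was at 25.6, 37.3 and 19.6 against 57.3, 56.04 and 53.2 CPM.

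Cell cycle genes moved with age in members. At P15, 6 of 11 tested genes were at least 2-fold lower than in the other stroma-gated cells, at P25 2 were at least 2-fold higher, and at 8 weeks 9 were at least 2-fold lower, so none was called in 3 of 3 libraries (median -0.87). Top2a was at 38.3, 116 and 2.18 CPM in members against 72.2, 65.8 and 29.7 CPM, Mki67 at 22.5, 65.1 and 0 against 49.7, 30.5 and 15.5 CPM, Hmgb2 at 158, 266 and 71.9 against 380.1, 217 and 140.3 CPM and Stmn1 at 129, 174 and 13.1 against 292, 127 and 62.9 CPM. At P25 the 44 members with a rule sum of 4 held 214 of the 323 Mki67 UMIs of the group. The 12 genes summed to 475, 995 and 155 CPM in members and to 1030, 698 and 369 CPM in the comparator. None of 13 immediate early and dissociation genes was called (median -0.08), with Fos at 4805, 4818 and 6709.6 against 4139, 4469 and 7293 CPM, Jun at 2901, 2643 and 2969 against 1827, 2675 and 3479.6 CPM, Junb at 2039, 1909.6 and 3311 against 1733, 2414 and 4071 CPM and Fosb at 1478, 1381 and 2104 against 1276, 1841 and 2400.2 CPM.

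Transcripts of other cell types were measured in members beside these lists. Krt14 had a UMI in 1124, 145 and 8 members, and the 10 epithelial genes summed to 359, 870 and 828 CPM in members against 924, 658 and 185 CPM in the comparator. All 8 tested epithelial genes were at least 2-fold lower at P15, and 6 at least 2-fold higher at 8 weeks, where a single member held 94.9% of the Krt14 UMIs. At P25 a single member held 66.1% of them, and the 44 members with a rule sum of 4 held 2226 of 2479. In 3 of 3 libraries Odam was called lower and none higher (median 0.25). No epithelial gene was called lower with members also at 0 for Pecam1 and Cdh5. The same held with the comparator limited to cells with at least the lower quartile of the members' UMIs. Without the members that had 10 or more UMIs of another cell class, 6 of 6 tested epithelial genes were called lower (median -2.33), a direction that the filter fixed, since it removed members for such UMIs and left the comparator unfiltered. Among members with a Pappa2 UMI 4 of 6 were called lower (median -1.87). Members with at least 10 UMIs of the epithelial list numbered 76, 11 and 1, and those with 10 or more of the epithelial, endothelial, immune, Schwann or erythroid genes numbered 133, 17 and 2. The 8 endothelial genes summed to 74.2, 163 and 183 CPM in members against 12.1, 5.57 and 10.8 CPM, led by Flt1 (4 of 4 tested called higher, median 3.98, under the unequal gate described above). The 10 immune genes summed to 171, 14.9 and 6.54 CPM against 417, 28.2 and 38.1 CPM, with Ptprc at 0 by the rule and Lyz2 called lower among 3 tested (median -0.65). The Schwann list summed to 108, 158 and 102 CPM against 189, 201 and 224 CPM (0 of 4 called, median -0.67), led by Pmp22, which fibroblasts also express. The mural list summed to 169, 191 and 281 CPM against 420, 188 and 233 CPM (0 of 5 called, median -0.54), led by Pdgfrb, and the odontoblast list had 0 of 7 called (median -0.27) with Dspp at 0.621, 3.43 and 0 CPM in members. The erythroid list summed to 491, 44.5 and 26.2 CPM against 4371, 2693 and 57.3 CPM (2 of 4 called lower, median -3.35). The part of these transcripts in the gene differences was not tested beyond the alternatives given in the closing section.

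The members were not uniform, and at P15 they are described by the number of rule genes with a UMI. In cells with 2, 3 and 4 of the rule genes, whose median UMIs were 18115.5, 17530.5 and 17329, Thbs4 was at 1288, 2379 and 3571 CPM and Col16a1 at 673, 1563 and 2157 CPM. Spon2 was at 48.6, 112 and 128 CPM and Eya1 at 49.96, 96.7 and 149 CPM. Asporin, periostin and Col1a1 followed the same order, from 663 to 1721 CPM, 1851 to 2910.1 CPM and 20708 to 34493 CPM. Pthlh went the other way with 135, 99.9 and 49.4 CPM, and the mCherry transcript with 257, 162 and 103 CPM. Ogn was at 713, 457 and 252 CPM, and Krt14 at 361, 126 and 112 CPM. Ibsp was at 1867, 1842 and 898 CPM, and Bglap was highest in the middle at 1546, 3026 and 951 CPM. The number of rule genes is part of what chose the members, and Thbs4 and Col16a1 were proposed as markers from the same cells, so these values are a description.

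**Figure D5:**
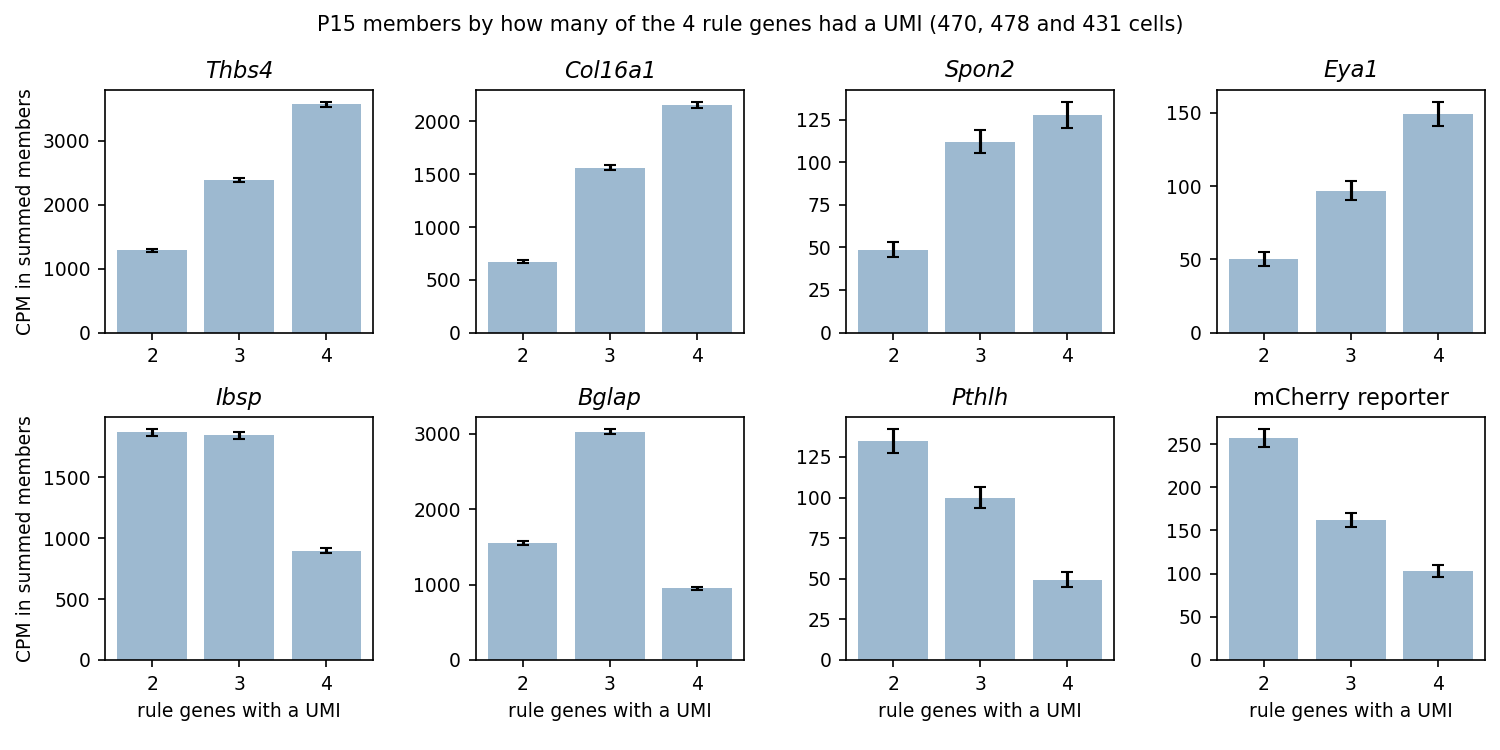
P15 members grouped by how many of the 4 rule genes had a UMI (470, 478 and 431 cells). Bars give the CPM of the summed UMIs on linear axes that start at 0, with exact 95% Poisson intervals. The 4 markers outside the rule (top row) climbed with the number of rule genes, Thbs4 from 1288 to 3571 CPM, while Pthlh went from 135 to 49.4 CPM and the mCherry transcript from 257 to 103 CPM.

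The members were also split by Pappa2. At P15 the 873 members with a Pappa2 UMI had Bglap at 914 CPM, Ibsp at 949 CPM, Col11a2 at 13.9 CPM and Ifitm5 at 12.6 CPM, and the 506 members without one had 3730, 2725, 95.1 and 81.9 CPM. Their median UMIs were 18531 and 16321. Pthlh was at 54.4 against 176 CPM and mCherry at 121 against 281 CPM. Nts, a periapical gene that encodes neurotensin and was chosen after its values were seen, was at 73.1, 600 and 799 CPM in members with Pappa2 and at 30.6, 26.2 and 0 CPM in those without. Its UMIs lay in 183, 30 and 5 members, and 1 member held 34.6% of those at 8 weeks. Aspn showed the same order at P15 with 1505 against 714 CPM, as did Col16a1 with 1657 against 1038 CPM. Spon2 was at 104 against 78.1 CPM and Eya1 at 113 against 66.8 CPM. Thbs4 was close at 2432 against 2274 CPM. At P25 the 41 members with Pappa2 and the 158 without it differed in the same direction for Bglap, at 399 against 5719.5 CPM, Ifitm5, at 5.24 against 268 CPM, and Col11a2, at 6.29 against 370.2 CPM. At 8 weeks, with 11 and 23 cells, Bglap was at 862 against 5977 CPM, Ibsp at 2252 against 3939 CPM and mCherry at 162 against 423 CPM. A single member held 55.4% of the 8-week Bglap UMIs. Col11a2 at 26.1 against 44.9 CPM and Ifitm5 at 88.8 against 108 CPM had overlapping intervals at that age. So did Aspn at 355 against 490 CPM and Eya1 at 41.8 against 26.2 CPM. Spon2 at 115 against 352 CPM and Thbs4 at 951 against 1960 CPM were there lower in members with Pappa2. Col16a1 was higher in them, at 1003 against 460 CPM. Since Pappa2 is a gene of the rule, members without it had qualified through the other 3 genes, and the values are a description of the split.

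The members were also set beside 2 named groups of the same libraries, whose gates use the genes given. Against Ibsp-high cells, 200 of 8203 genes (2.44%) were at least 2-fold higher in members in 3 of 3 libraries and 80 (0.975%) at least 2-fold lower. Alpl was at 458, 445 and 419 CPM in members and 83.8, 151 and 92.7 CPM in Ibsp-high cells, and Aspn at 1234, 1368 and 434 against 59.3, 99 and 47.3 CPM. Spp1, Enpp1 and Ank, genes of mineralized matrix and phosphate handling, were lower in members, with Enpp1 at 24.6, 26 and 45.8 against 319, 254 and 343 CPM, Ank at 63.1, 98.6 and 119.9 against 674, 513 and 595 CPM and Spp1 at 231, 1082 and 181 against 3451, 5561 and 4581 CPM. Against Ogn-group cells, defined by at least 2 of Ogn, Angpt4, Igfbp3 and Sfrp2 with a sum of at least 10 UMIs (2919, 3085 and 1845 cells), 75 of 8433 genes (0.889%) were higher in members and 128 (1.52%) lower. Col15a1 was at 8.92, 25.8 and 13.4 CPM in Ogn-group cells, Fgfr3 at 20.7, 29.8 and 25.8 CPM and Spon2 at 12.6, 48.5 and 25.98 CPM, all below the members at each age. Set beside Ibsp-high cells, Col15a1 was not higher in members at P15.

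The last comparison was of the members themselves between P15 and 8 weeks, with 34 cells and 459602 UMIs on the later side. Of 8336 genes tested, 613 (7.35%) were at least 2-fold higher at 8 weeks and 301 (3.61%) at least 2-fold lower. With TMM scaling the split was 408 higher and 430 lower. In the other stroma-gated cells, 283 (3.39%) and 159 (1.91%) of the same genes passed in the same directions. The median gene was 0.13 higher at 8 weeks on the log2 scale in members, and 0.02 lower in the comparator. For 92 of the 613 genes a single member held at least 50% of the 8-week UMIs, and 123 of the 613 had a UMI in at least 17 of the 34 members.

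The 10 genes that rose most from P15 were mostly of the former kind. Prg4 went from 0.73 to 67.6 CPM with a UMI in 2 of 34 members, Pmch from 23.2 to 277 CPM in 2 members, Chad from 4.46 to 63.2 CPM in 1 member, and C3 from 1.10 to 76.3 CPM in 3 members. Cxcl5, Col6a5, Sod3 and Dio2 had a UMI in 4, 4, 4 and 5 members, and their levels were 109, 100.3, 74.1 and 203 CPM at 8 weeks against 2.89, 3.73, 3.10 and 19.6 CPM at P15. Rorb had a UMI in 6 members and went from 5.004 to 89.4 CPM. Ptgs2, the inducible cyclooxygenase gene, was spread more widely, in 11 of 34 members, and was at 18.8, 37.3 and 299 CPM at the 3 ages. Each of these 10 rises thus rests on 1 to 11 cells. In 9 of the 10, all but Ptgs2, the direction turned under at least 1 alternative, for 8 of them among members with a Pappa2 UMI and for Dio2 in cells thinned to 5000 UMIs.

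Among rises with a UMI in at least 17 members, the following were chosen after the values were seen. Tnn was at 345, 1291 and 1925 CPM in members, a log2 change of 2.48 from P15 to 8 weeks, and the other stroma-gated cells changed by 2.80. The secreted matrix gene Ecm1 was at 31.2, 258 and 207 CPM (2.69, comparator 2.27) and the plasminogen activator gene Plat at 68.8, 152 and 305 CPM (2.13, comparator 2.37). In these 3 genes both groups rose by similar amounts. Collagen VI chains rose more in members, with Col6a1 at 352, 806 and 1312 CPM (1.90, comparator 0.68) and Col6a2 at 285, 629 and 1131 CPM (1.98, comparator 0.53), a difference that was not tested. The complement genes C1s1 and C1ra were at 54.9, 127 and 301 and 45.8, 103 and 203 CPM. Gm8797, Rnaset2a and Nme2 also rose, by 2.94, 2.56 and 2.91 in members and by 3.15, 2.72 and 2.49 in the comparator, and as genes with near-identical or overlapping copies they are uncertain.

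Genes that fell from P15 to 8 weeks were of several kinds. Coch, Hbb-bt and Hist1h1b had no UMI in the 34 members at 8 weeks and 59.97, 56.8 and 53.2 CPM at P15, so they were at least 9.17-fold, 8.69-fold and 8.13-fold lower, taking 3 UMIs over the group as the floor. A single P15 member held 7.13, 50.1 and 17.5% of the UMIs of these genes, so the Hbb-bt bound rests largely on 1 cell. The cell division genes Hist1h2ap and Stmn1 went from 170.1 to 2.18 CPM and from 129 to 13.1 CPM. The neutrophil genes S100a8 and S100a9, at 56.1 and 77.5 CPM in P15 members, and the globin gene Hbb-bs, at 304 CPM, had 1, 1 and 4 UMIs left at 8 weeks, and in the comparator the log2 changes were -4.91, -4.82 and -6.46. Gm10260 changed by -3.16 in members and by -3.02 in the comparator. Car3, a carbonic anhydrase gene, was at 53.6, 37.5 and 4.36 CPM in members and 10.1, 20.1 and 13.9 CPM in the comparator. Its level thus fell in members and not in the comparator, a difference that was not tested. The 8-week value in members lay below the floor of 3 UMIs.

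Of the genes that marked the members at P15, Aspn fell by 1.51 on the log2 scale while the comparator changed by 0.25, Eya1 fell by 1.54 (comparator -0.63), Pappa2 by 1.48 (comparator -0.63) and Col16a1 by 1.07 (comparator 0.68). Emid1, a matrix gene that was 3.46-fold the comparator at P15, fell by 1.79 (comparator -0.03). The collagen-linked gene Cthrc1 was at 178, 195 and 26.2 CPM in members (comparator -0.89 on the log2 scale), and Mest and Pkdcc at 198, 61.7 and 30.5 CPM and 223, 93.7 and 56.7 CPM. Spon2 and Col15a1 changed by 1.40 and 1.64 in members and by 1.82 and 1.68 in the comparator, which kept the difference between the groups. None of these changes between ages has a replicate.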

How the data were processed

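Pthrp-mCherry+ cells of mouse molars were profiled by droplet single-cell RNA-seq in 3 libraries, 1 each at P15, P25 and 8 weeks. The authors deposited filtered matrices of UMI counts per gene and cell, which are raw counts with no normalization. Per the labels, reads were aligned to mm10 with Cell Ranger 6.1.2. The file headers give Cell Ranger 6.1.2 for P15 and 8 weeks and 6.0.1 for P25, and 32293 gene features for P25 against 22056 for the others, so a reference difference cannot be told apart from the P25 age. Sums used the 21446 gene identifiers present in all 3. Strand handling and annotation release were not given in the sources used here, and gene positions came from the GENCODE annotation of mm10.

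Of 12926, 8971 and 5192 deposited barcodes, 11412, 8325 and 4591 had 500 or more genes and no more than 20% mitochondrial UMIs. Libraries shared 26 (P15 and P25), 16 (P15 and 8 weeks) and 13 (P25 and 8 weeks) barcodes, none among members of the group. No doublet caller was run, and leaving out the 6% of cells with the most UMIs was tried instead. Summed counts were scaled to CPM and compared as log2 ratios with a pseudocount of 1 CPM, over genes with a mean of at least 10 CPM, and a call was a ratio of at least 2-fold in the same direction in 3 of 3 libraries (for age, 8 weeks against P15). With 1 library per age and a rule taken from these cells no p-value was computed. Shares have Clopper-Pearson, levels Poisson and ratios exact conditional intervals at 95%, for counting error only. The code was tested on simulated data.

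Genes named were the 8 markers, the rule genes, the 4 most abundant tested genes of each list, the 15 highest and 10 lowest by the smallest difference in any library, and the 10 most raised and 10 most lowered with age, at 50 CPM or more. Genes named beyond this were chosen after their values were seen. The members and lists were chosen with earlier results of these data known. Alternatives covered the rule, depth, comparator, scaling, pseudocount and filter, and each library left out. Python 3.11.15, numpy 2.4.6, scipy 1.17.1, pandas 2.3.3 and matplotlib 3.10.9 were used. The P6 cells of the study were not analysed here, and 0 columns of sample values were set aside. Results for a few genes are not reported here.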

Additional observations from a re-analysis of the deposited data

Results flagged for a closer look

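Dio2, which encodes the deiodinase that activates thyroid hormone, changed in opposite directions with age in the members and in the other stroma-gated cells. From P15 to 8 weeks its log2 change was 3.31 in members and -1.44 in the other stroma-gated cells. At 8 weeks 5 of 34 members had a Dio2 UMI, and 1 of them held 80.6% of the UMIs. In cells thinned to 5000 UMIs the members' change was -3.41, so the opposite direction was lost. There was 1 library per age, and the difference was not tested.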

How the results depend on the processing

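No paired analysis was possible because each age had 1 library. The P15 share was above both later shares under every rule and depth tried. The ratio of P25 to 8 weeks was 1.17 (0.564 to 2.62) at 5000 UMIs, 2.33 (0.482 to 22.1) at 3000 UMIs, 1.08 (0.639 to 1.87) without 6 genes of other cell classes and 1.65 (0.133 to 86.9) for all 4 genes, so that order was not resolved in these settings. Values are P15, P25 and 8 weeks where each moved. A sum of at least 3 UMIs gave 13.8, 3.17 and 1.20%, and a sum of at least 6 gave 9.84, 1.47 and 0.436%. At least 3 genes gave 7.97, 0.673 and 0.196%, and no limit on Ibsp gave 13.5, 2.89 and 1.02%. Chosen after seeing the data, all 4 genes gave 3.78, 0.0360 and 0.0218%, and a Pappa2 UMI gave 7.65, 0.492 and 0.240%. Thinning to 5000 UMIs gave 5.71, 0.339 and 0.289%, and to 3000 gave 2.77, 0.111 and 0.0477%. Members without a UMI of any of 6 genes of other cell classes were 1.70, 0.541 and 0.501%, so most P15 and P25 members carried a UMI of 1 of these 6 genes. That filter acted on members alone, with all kept cells as the denominator. At P15 the share was 10.7% without the cell filters, 11.4% without the deepest 6% of cells, and 10.9% without members that had 10 or more UMIs of another class, a setting chosen after seeing the data. 

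Of genes higher in members (31), a sum of at least 6 gave 50, thinned cells 100, leaving out the deepest cells 47, a pseudocount of 10 CPM 15, no filter on low values 63 and a mean of at least 50 CPM 8. Leaving out 1 library each gave 46 to 63. Of genes lower (65), all other kept cells as comparator gave 100. A comparator of cells with at least the lower quartile of the members' UMIs gave 39. Thinned cells gave 192, members without the 6 genes above 123, a pseudocount of 10 CPM 27 and no filter 112. At least 50 CPM gave 23, a Pappa2 UMI 108, and leaving out 1 library each 78 to 117. From P15 to 8 weeks (613 up, 301 down), a sum of at least 6 gave 1043 and 509, thinned cells 2168 and 1029, a pseudocount of 10 CPM 280 and 127, no filter 1338 and 1682, at least 50 CPM 164 and 48, and a Pappa2 UMI 1027 and 568. TMM scaling gave 408 up and 430 down and centring on the median gene 441 and 396, so the excess of genes that rose depended on the scaling. 

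Reversed changes with age were seen in genes that 1 to 6 members carried at 8 weeks. With a Pappa2 UMI the log2 changes were -1.08 for Prg4, -0.59 for C3, -1.45 for Cxcl5, -1.78 for Col6a5, -1.35 for Sod3, -0.013 for Rorb, -2.68 for Chad and -5.07 for Pmch. With a sum of at least 6 they were -0.99 for C3, -1.20 for Cxcl5 and -1.86 for Pmch, in thinned cells -2.94 for Chad, -1.58 for Pmch and -3.41 for Dio2, and without the deepest cells -1.91 for Pmch. Except where a setting changed the number of cells or genes, the cause was not tested. Depth limits the 8-week values most, where 34 members gave 459602 UMIs.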
